A study of Drosophila melanogaster with 24 samples.

Results

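The genes described here are 9 of the 16995 in the deposited count table of fly brain RNA and form the core of the Drosophila cell death machinery. They were chosen by symbol: the caspases Dronc, Drice and Dcp-1, the adaptor Dark, the inhibitors Diap1 and Diap2, and the activators hid, rpr and grim. All 9 symbols were found. RNA was read in 24 libraries, each from the single brain of an adult, mated fly of the white-eyed laboratory strain w1118, aged 10 to 14 days. Flies were either left uninjured (control) or struck once in a high impact trauma device, in which a vial on a spring hits a pad, and were taken 1, 2 or 4 hr later. The trauma reaches the whole body and not the head alone. With the sex given in the labels this made 8 groups of 3 libraries, and no group carried a transgene or a drug.

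Caspases are proteases that dismantle a cell from within. In the fly, the initiator caspase Dronc is assembled into an active complex by Dark, the counterpart of mammalian Apaf-1, and then cleaves the effector caspases Drice and Dcp-1. Diap1 binds and ubiquitinates these caspases and holds them in check, while Diap2 restrains Drice and is also known for its role in Imd immune signalling. Hid, Reaper (rpr) and Grim, which lie together on chromosome arm 3L, displace caspases from Diap1, and reaper is a known early transcriptional response to irradiation and to other death signals.

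The count table holds reads from the 3′ ends of polyadenylated transcripts, so that a transcript is read about once whatever its length, and levels were not divided by gene length. Levels are given in CPM (a gene's reads scaled to a library total shared by all libraries), with that total adjusted by TMM (trimmed mean of M values). Totals ran from 46943 to 1769669 reads (median 536672), 4 libraries held under 100000, and 1 read was worth 0.662 to 16.9 CPM. Where no read was counted, a library allowed a level of up to 3 reads, or 1.98 to 50.7 CPM. Replicate 2 of the female-labelled 2 hr and 4 hr groups stood apart. The neuronal genes elav and nSyb were at 20.1 and 56.2 CPM in the first and at 45.7 and 86.0 CPM in the second, against at least 141 and 320 CPM in the other 22 libraries. Summed over 8 neuronal genes, the second was nearer to the others (1964 CPM against at least 2148 CPM) than the first (323 CPM). Both also had little roX1, a dosage compensation RNA made in males (6.02 and 78.1 CPM), whereas the other 22, female-labelled ones included, had 706 to 1249 CPM. The related roX2 was at 2.01 and 3.31 CPM, against 88.5 to 180 CPM. A sum of 6 genes, these RNAs with msl-2 and the yolk protein genes Yp1, Yp2 and Yp3, did not follow that split. It ran from 1979 to 35942 CPM in female-labelled and from 1223 to 4305 CPM in male-labelled libraries. The 35942 CPM was from a 1 hr library, and the libraries that stood apart had 34995 and 4543 CPM. The groups are therefore called female-labelled and male-labelled, and no difference between them can be read as one between sexes.

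Among the 9 genes the inhibitors and hid were the most abundant and the caspases were low. Mean levels over the 24 libraries were 103.57 CPM for Diap2, 95.8 CPM for Diap1 and 70.3 CPM for hid. The effector caspase Dcp-1 followed at 19.8 CPM, Drice at 5.83 CPM, Dronc at 3.19 CPM and rpr at 2.395 CPM. Diap2 lay above 91.9% of all genes in the table by mean level and rpr above 56.7%. Dark and grim had no read in any of the 24 libraries, as 6650 of the 16995 genes (39.1%) had none. Neighbours in this order were not always separated: Diap2 was above Diap1 in 18 of 24 libraries, but Diap1 was above hid in 10 and below it in 13, and by the median hid (71.3 CPM) ranked above Diap1 (68.6 CPM). Hid was above Dcp-1 in 22 libraries and Dcp-1 above Drice in 20. Drice was above Dronc in 14 libraries and below it in 5, and Dronc above rpr in 10 and below it in 7, so these last 3 genes were not ordered beyond their spread. Whole brains were read, so that fewer cells of a type and less RNA per cell cannot be told apart in any level given here.

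**Figure D1:**
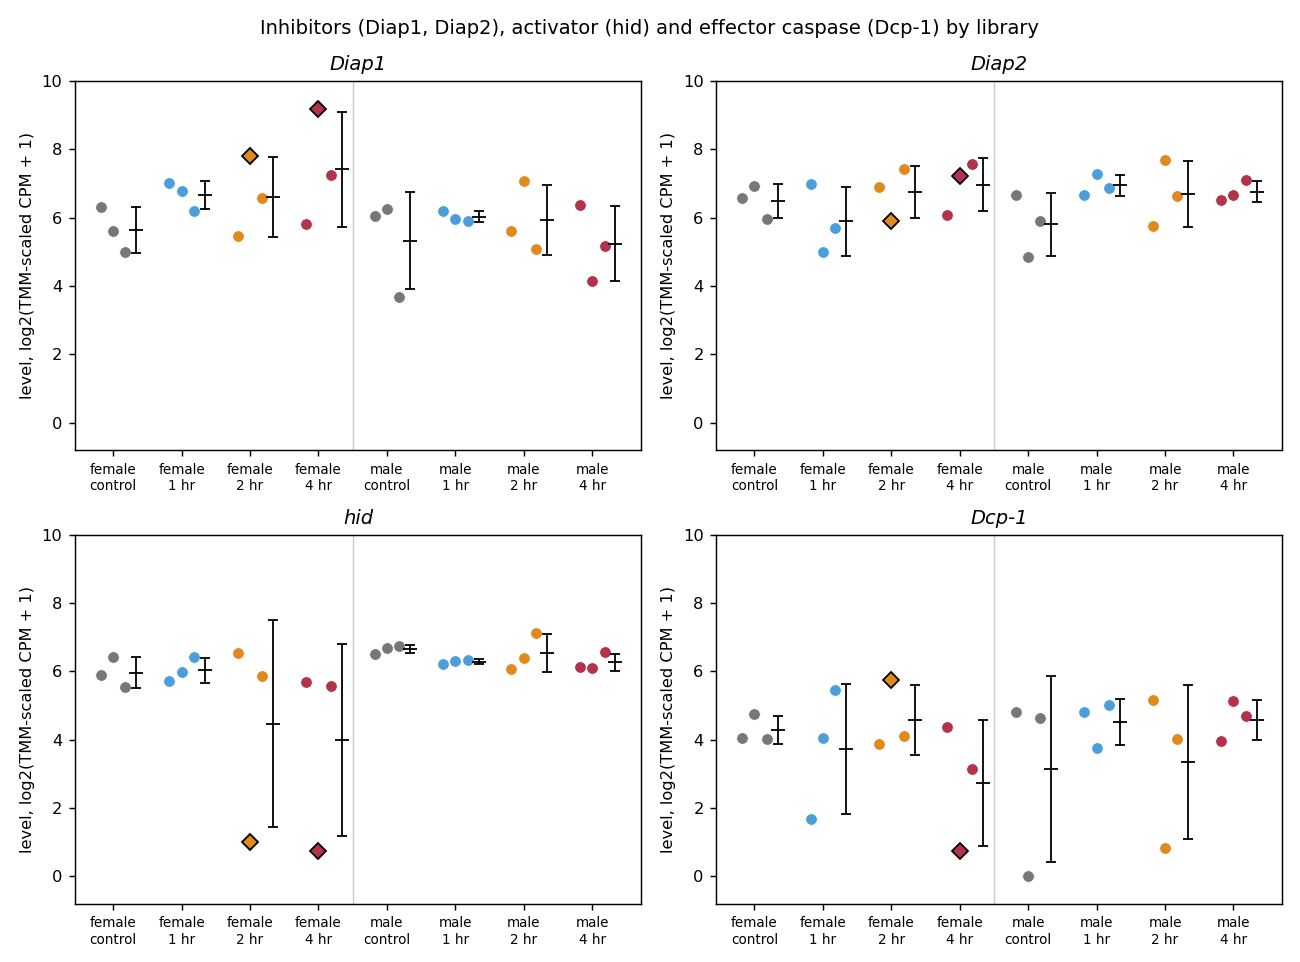
Levels of Diap1, Diap2, hid and Dcp-1 in each of the 24 libraries, as log2 of TMM-scaled CPM plus 1, by sex label and time after injury; bars beside the points are the mean ± SD of these log2 values over 3 libraries and outlined diamonds mark female-labelled 2 hr and 4 hr replicate 2. Diap1 reaches its highest levels (221 and 578 CPM) and hid its lowest (1.00 and 0.662 CPM) in those diamonds.

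Diap1, the inhibitor on which the survival of most fly cells depends, had its 3 highest group means in the injured female-labelled groups. Female-labelled controls had 30.7, 47.6 and 78.6 CPM, a mean of 52.3 ± 24.3 CPM (SD, n = 3). At 1 hr the libraries had 72.3, 108 and 128 CPM, at 2 hr 43.0, 93.9 and 221 CPM, and at 4 hr 55.8, 151 and 578 CPM. The 30.7 CPM of a control stood on 2 reads and the 108 CPM at 1 hr on 7. Every injured group thus overlapped the controls, and 6 of the 9 injured libraries lay above the highest control. Group means were 103 ± 28.3, 119 ± 91.6 and 262 ± 278 CPM at 1, 2 and 4 hr (SD, n = 3). The 2 highest values, 221 and 578 CPM, were both from the libraries that stood apart.

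The Diap1 change at 4 hr in female-labelled flies was the largest in size among the 4 members that passed the filter on low counts, over the 6 comparisons with control, and did not pass the test. The log2 fold change was 2.26 (SE 0.826), with an unadjusted p of 0.0153 and an adjusted p of 0.929 in edgeR's quasi-likelihood test. It was 0.93 without replicate 2 of the 4 hr group, and 0.96 (unadjusted p = 0.123 in the same edgeR test) without both libraries that stood apart. At 1 hr it was 0.91 (SE 0.823) and at 2 hr 1.095 (SE 0.806), and without those libraries 0.94 and 0.35. All 8 genes of a neuronal list were read in both of those libraries, and their summed level was 323 and 1964 CPM, against 2148 to 4209 CPM in the other 22. By group the sum was 3935 to 4069 CPM in female-labelled controls, 2148 to 4209 CPM at 1 hr, 323 to 3584 CPM at 2 hr and 1964 to 3752 CPM at 4 hr. The 6 muscle genes summed to 1022 and 1076 CPM in those libraries (2518 to 4732 CPM in the others) and the 7 glial genes to 968 and 1841 CPM (1473 to 2175 CPM). Of the glial genes, repo was at 16.1 and 106 CPM (0 to 46.3 CPM). The 8 photoreceptor genes summed to 14661 and 6785 CPM (3810 to 12995 CPM). Fat body genes, of which Fbp1 was at 0 in all libraries, summed to 36811 and 5134 CPM (4354 to 38470 CPM), and blood cell genes to 399 and 271 CPM (118 to 459 CPM). The part of these in the Diap1 values was not tested.

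In the male-labelled libraries Diap1 was at or below 133 CPM. Control libraries had 11.8, 64.9 and 74.7 CPM. The 1 hr libraries had 59.3, 60.9 and 73.0 CPM, the 2 hr libraries 33.1, 48.3 and 133 CPM, and the 4 hr libraries 16.9, 35.2 and 81.1 CPM. The lowest values, 11.8 and 16.9 CPM, each stood on 1 read. Log2 fold changes against control were 0.12 (SE 0.570), 0.39 (SE 0.571) and -0.23 (SE 0.619) at 1, 2 and 4 hr, and the lowest adjusted p in edgeR was 0.999.

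Diap2, the second inhibitor, was read in all 24 libraries and had a higher mean in each injured male-labelled group than in their controls, by less than the test could call. Male-labelled controls had 27.7, 59.2 and 100.92 CPM, on 10, 5 and 56 reads. Libraries taken at 1 hr had 101.44, 117 and 156 CPM, those at 2 hr 52.7, 99.2 and 204 CPM, and those at 4 hr 89.8, 101 and 137 CPM. At 1 hr all 3 libraries were thus above every control, by a gap of under 1 CPM at its narrowest, and at 2 and 4 hr the groups overlapped. In the 1 hr comparison 9.21% of the 4474 genes tested did not overlap. With library totals in place of TMM scaling the 1 hr groups overlapped too, since the highest control (106 CPM) passed the lowest injured library (104 CPM). Log2 fold changes were 0.93 (SE 0.498), 0.95 (SE 0.501) and 0.77 (SE 0.526), with unadjusted p-values of 0.0827, 0.0771 and 0.164 and a lowest adjusted p of 0.999 in edgeR. They were 1.69, 1.71 and 1.53 without control replicate 1, the highest control, and at the lowest 0.53, 0.23 and 0.36 with another library left out. With limma-voom and a weight for each library they were 0.44, -0.07 and 0.32.

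In the female-labelled libraries Diap2 did not separate any time from control. Controls had 61.4, 94.4 and 121 CPM and the 1 hr libraries 30.8, 51.1 and 125 CPM. The 61.4 CPM stood on 4 reads and the 30.8 CPM on 2. The 2 hr libraries had 59.2, 119 and 171 CPM and the 4 hr libraries 66.9, 149.5 and 191 CPM. All 3 injured groups overlapped the controls, with log2 fold changes of -0.37 (SE 0.664), 0.28 (SE 0.650) and 0.51 (SE 0.650). Diap2 was within the range of the other libraries in the 2 that stood apart (59.2 and 149.5 CPM against 27.7 to 204 CPM).

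Hid, the antagonist of Diap1 that growth factor signalling is known to hold back, was read steadily in 22 libraries and almost not at all in 2. In the 22 it lay between 46.0 and 139.9 CPM, while female-labelled 2 hr replicate 2 and 4 hr replicate 2 had 1 read each (1.00 and 0.662 CPM). Female-labelled controls had 46.0, 59.0 and 85.4 CPM and the 1 hr libraries 51.2, 61.7 and 85.1 CPM. The 46.0 CPM stood on 3 reads and the 61.7 CPM on 4. The other 2 hr libraries had 57.4 and 92.8 CPM and the other 4 hr libraries 46.2 and 50.2 CPM. Hid in those 4 libraries was therefore within or just above the control range. Log2 fold changes in the female-labelled groups were 0.00 (SE 1.099), -0.38 (SE 1.17) and -1.06 (SE 1.19) at 1, 2 and 4 hr, and without the libraries that stood apart -0.02, 0.16 and -0.47. None passed the edgeR test. With library totals in place of TMM scaling, all 3 libraries at 4 hr (0.565 to 54.3 CPM) were below every control (57.3 to 88.8 CPM), which they were not on the TMM scale. The share of all genes that did not overlap there was 11.8% on the TMM scale and was not counted with library totals.

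Male-labelled controls had more hid than the injured libraries 1 hr after the strike, by less than the test could call. They had 90.1, 102 and 107 CPM against 73.0, 78.3 and 80.3 CPM at 1 hr, so that these 2 groups did not overlap, on either scaling of the library totals. The log2 fold change was -0.39 (SE 0.316, unadjusted p = 0.238, adjusted p = 0.999 in edgeR). Of the 4474 genes tested in that comparison, 9.21% did not overlap on the TMM scale. The 2 hr libraries had 65.9, 83.7 and 139.9 CPM, the 4 hr libraries 67.6, 69.5 and 93.3 CPM, and both groups overlapped the controls (-0.05, SE 0.319, and -0.35, SE 0.338). Hid was also the 1 member whose controls did not overlap between the labels, with every female-labelled control (46.0 to 85.4 CPM) below every male-labelled one, at a log2 fold change of -0.58 (SE 0.905, adjusted p = 1.00 in edgeR). With library totals in place of TMM scaling these controls overlapped, at 57.3 to 88.8 CPM and 88.4 to 123.6 CPM. Of the 5462 genes tested there, 7.36% had controls that did not overlap.

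**Figure D2:**
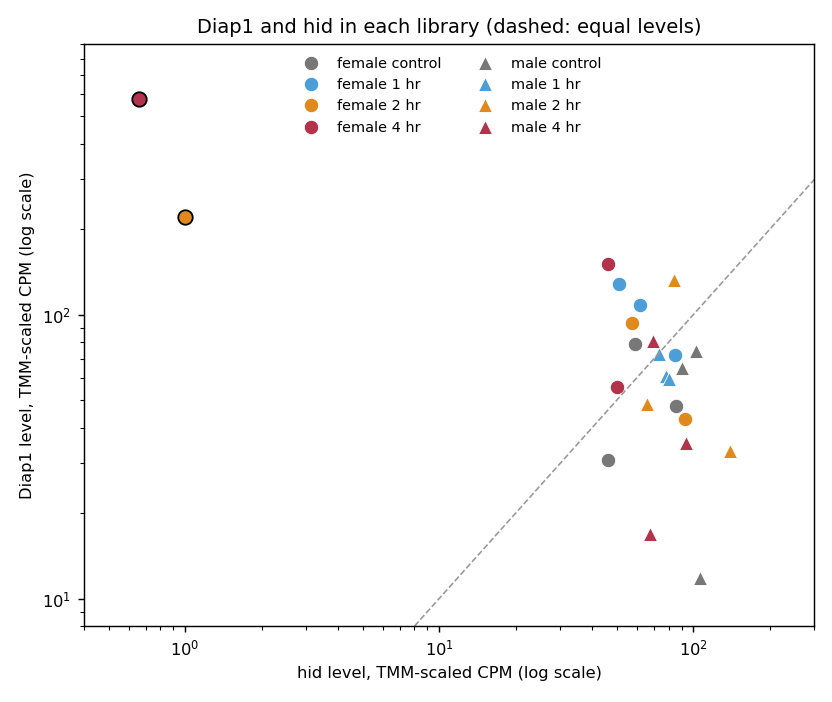
Level of Diap1 against that of hid in each of the 24 libraries, both in TMM-scaled CPM on log axes; circles are female-labelled and triangles male-labelled, colours give the time and the dashed line equal levels. The 2 outlined libraries lie far to the upper left, with hid at 1.00 and 0.662 CPM, and the other 22 lie together at 46.0 to 139.9 CPM of hid.

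Reads of Diap1 per read of hid put the inhibitor and its antagonist on a scale that no library total enters. In the 22 libraries the ratio ran from 0.111 to 3.26 with a median of 0.758, and 8 libraries were over 1. Of those 8, 5 were among the 7 other injured female-labelled libraries (0.463 to 3.26, median 1.64), 2 among the 9 injured male-labelled libraries and 1 among the 6 controls. The female-labelled controls had ratios of 0.557, 0.667 and 1.33, so that their range overlapped that of the injured libraries. Some ratios stood on few reads. The lowest, 0.111 in a male-labelled control, had 1 Diap1 read and 9 hid reads, and the 0.667 had 2 and 3. A female-labelled 1 hr library at 1.75 had 7 and 4. In the 2 libraries that stood apart the ratio was 220 at 2 hr and 874 at 4 hr, each on 1 hid read.

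Dcp-1, an effector caspase also known for its part in autophagy and cell death of the ovary, was read in 23 libraries at 0.662 to 53.2 CPM. Female-labelled controls had 15.3, 15.7 and 25.8 CPM, the 1 hr libraries 2.22, 15.4 and 42.6 CPM, the 2 hr libraries 13.7, 16.4 and 53.2 CPM, and the 4 hr libraries 0.662, 7.85 and 19.5 CPM. Male-labelled controls had 0, 23.7 and 27.0 CPM, the 1 hr libraries 12.6, 27.0 and 31.4 CPM, the 2 hr libraries 0.790, 15.3 and 35.1 CPM, and the 4 hr libraries 14.5, 24.7 and 33.8 CPM. Several of these values stood on few reads. The 15.3 CPM of a female-labelled control and the 15.4 CPM at 1 hr had 1 read each. The male-labelled 23.7 CPM in a control and 33.8 CPM at 4 hr had 2 reads each. The male-labelled control at 0 allowed up to 8.30 CPM. All injured groups overlapped their controls. Log2 fold changes ran from -1.19 (SE 1.25, female-labelled 4 hr) to 0.52 (SE 1.01, male-labelled 1 hr). The 2 libraries that stood apart held both the highest level (53.2 CPM, 53 reads) and the lowest in a library with a read (0.662 CPM, 1 read), so they did not share a direction for this gene as they did for Diap1 and hid.

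**Figure D3:**
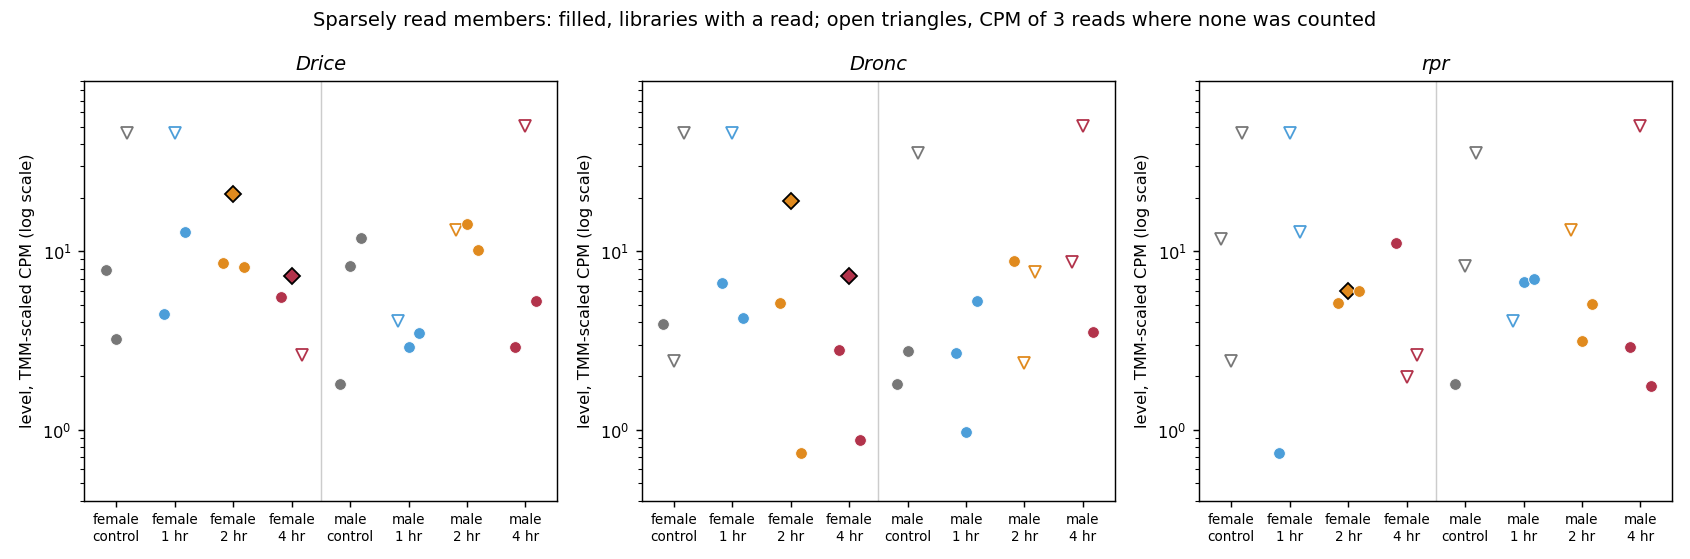
Levels of Drice, Dronc and rpr in each library, in TMM-scaled CPM on a log axis; filled points are libraries with at least 1 read and open triangles the CPM that 3 reads would give in a library with none, so that the level there lay at or below the triangle. Rpr was read in all 3 female-labelled 2 hr libraries at 5.15 to 6.02 CPM and in no female-labelled control, and outlined diamonds are the libraries that stood apart.

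Drice and Dronc, the main effector and the initiator caspase, gave 101 and 59 reads over all 24 libraries. Drice was read in 18 libraries and Dronc in 16. Drice had 2, 4 and 0 reads in female-labelled control replicates 1 to 3. After 1 hr it had 6, 0 and 3 reads, after 2 hr 5, 21 and 11, and after 4 hr 2, 11 and 0. The 21 at 2 hr and the 11 at 4 hr belong to the libraries that stood apart. All 3 libraries at 2 hr (8.19, 8.59 and 21.1 CPM) were above every control (0 to 7.86 CPM), but the control without a read allows up to 46.0 CPM, and with library totals alone the groups overlapped. Male-labelled controls had 1, 3 and 1 Drice reads, and the injured libraries 0, 3 and 2 after 1 hr, 0, 18 and 4 after 2 hr, and 1, 0 and 3 after 4 hr. Pooled over libraries, injured against control gave a ratio of 2.02 (95% exact counting interval 0.876 to 5.73) in the female-labelled and 1.19 (0.459 to 3.93) in the male-labelled libraries. Without the libraries that stood apart the female-labelled ratio was 1.38 (0.559 to 4.10). Counting intervals here and below leave out the spread between flies.

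Dronc reads in the female-labelled libraries came mostly from those that stood apart. The controls had 1, 0 and 0 reads, the 1 hr libraries 9, 0 and 1, the 2 hr libraries 3, 19 and 1, and the 4 hr libraries 1, 11 and 1, where the 19 and the 11 belong to the libraries that stood apart. Pooled, 46 reads in injured against 1 in control libraries gave a ratio of 9.46 (1.62 to 382), which became 4.92 (0.764 to 206) without them. Male-labelled libraries had 1, 1 and 0 reads in controls and 2, 1 and 3, 2, 0 and 0, and 0, 0 and 2 at 1, 2 and 4 hr, a pooled ratio of 0.961 (0.205 to 9.02). In an exact two-sided permutation test of the 9 injured against the 3 control libraries of a label, p was 0.305 and 0.727 for Dronc and 0.368 and 0.432 for Drice (female-labelled, then male-labelled). The smallest p these 220 arrangements allow is 0.00455.

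Rpr, the other activator with reads, was read mainly after injury, though with few reads. Its 42 reads came from 12 libraries, and 41 of them from 11 of the 18 injured libraries against 1 read from 1 of the 6 controls. The pooled ratio was 8.21 (1.39 to 332), but controls held only 2502478 of the reads of the series against 14264912 in injured libraries. In the female-labelled 2 hr group the 3 libraries had 3, 6 and 8 reads, or 5.15, 6.02 and 5.96 CPM, a mean of 5.71 ± 0.484 CPM (SD, n = 3). The 3 female-labelled controls had no read, which allowed up to 11.8, 2.42 and 46.0 CPM, so that only control replicate 2, which held 1193051 of the 1483728 reads of that group, was deep enough to set a limit below the injured libraries. The summed level of 8 photoreceptor genes was also higher in this group (8290 to 14661 CPM) than in the controls (3832 to 8064 CPM), and its part in the rpr reads was not tested. The 1 hr libraries had 1, 0 and 0 reads and the 4 hr libraries 4, 0 and 0.

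Male-labelled rpr reads were 1, 0 and 0 in controls, 0, 7 and 4 after 1 hr, 0, 4 and 2 after 2 hr, and 1, 0 and 1 after 4 hr. The pooled ratio was 3.65 (0.581 to 152). In the female-labelled libraries 22 reads against none gave a level 1.51 times the floor of 3 reads over the control group, with counting error left out. Exact two-sided permutation tests of injured against control libraries gave p = 0.286 in the female-labelled and p = 0.227 in the male-labelled libraries. With the tests on Drice and Dronc these were 6 such tests, and none reached 0.05. Fitted in edgeR without the filter on low counts, rpr at 2 hr in the female-labelled libraries had an unadjusted p of 0.0916 and an adjusted p of 0.746. In that comparison rpr and Drice were 2 of the 7 members with reads that lay above every control, as did 8.2% of the 9919 genes with a read, and none of the 7 had an unadjusted p under 0.05, as did 7.33% of those genes.

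Dark and grim were without a read in all 24 libraries, which hold 14264912 reads from injured and 2502478 from control flies. A count of 3 reads over the pooled controls would have been 1.17 CPM, so a lower level was not detectable there. In the Ensembl annotation of the current fly assembly (BDGP6), the last 300 exonic bases of Dark, where 3′ reads fall, overlap the antisense gene asRNA:CR44390 over 87.7% of their length, and those of grim overlap lncRNA:CR45975 on the same strand over 72.7%. The other 7 members had no such overlap. CR44390 had 21 reads in 7 libraries and CR45975 had none. Of 1369 protein-coding genes with at least 50% of this window overlapped, 48.9% had no read, against 31.0% of 9821 genes with under 10% overlapped. Which annotation was counted on, and whether by strand, is not stated in the sources available, and the part of the overlap in the missing reads was not tested.

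**Figure D4:**
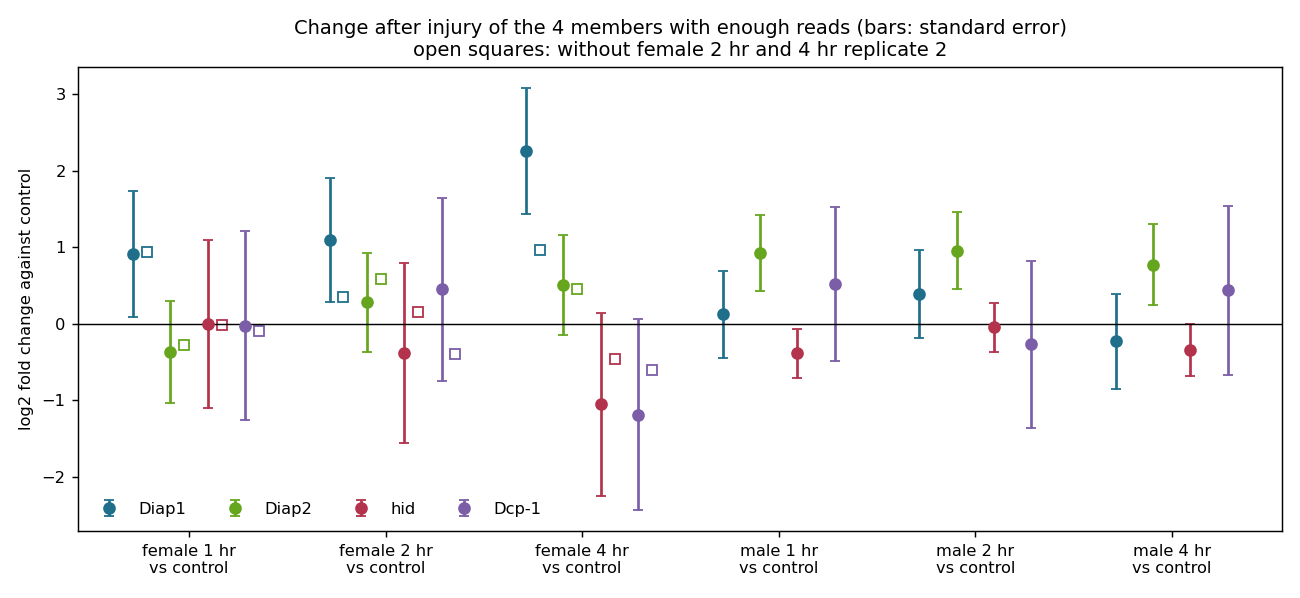
Log2 fold change against the control group of the same sex label for the 4 members with enough reads for the model; points are edgeR estimates, bars their standard errors as worked back from the test statistic, and open squares the estimates without female-labelled 2 hr and 4 hr replicate 2. The estimate for Diap1 at 4 hr in female-labelled flies moves from 2.26 to 0.96 without them.

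Across the design, 4 of the 9 members (Diap1, Diap2, Dcp-1 and hid) had enough reads to be tested, Drice, Dronc and rpr were under the filter on low counts, and Dark and grim had none. A gene was called changed at an adjusted p under 0.05 with a log2 fold change of over 1 in size, and edgeR called none of the 4 in any of the 11 comparisons, where it called 0% of the 4474 to 5918 genes tested. Other settings did call genes, though none of the members: at 2 hr in the female-labelled libraries DESeq2 called 47 genes, edgeR without the filter on low counts 95 and its likelihood ratio test without that filter 43. At an unadjusted p under 0.05 none of the 4 stood at 1 hr or 2 hr in the female-labelled groups, where 1.66% and 7.13% of all genes did, and 1 (Diap1) stood at 4 hr, where 5.09% did. None stood in the male-labelled groups at 1, 2 or 4 hr, against 1.54%, 2.44% and 1.92% of all genes. Groups that did not overlap were found for 2 of the 4 members in male-labelled flies at 1 hr (Diap2 higher, hid lower), against 9.21% of all genes tested, and for none in the other 5 comparisons with control. There the share over all genes was 6.91%, 14.7% and 11.8% in the female-labelled groups at 1, 2 and 4 hr and 4.22% and 7.49% in the male-labelled groups at 2 and 4 hr. With 4 genes tested, such counts say little beyond the named values.

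The change after injury was also compared between the labels. For Diap1 at 4 hr the change was higher in the female-labelled libraries by 2.46 on the log2 scale (SE 1.09), with an unadjusted p of 0.0343 and an adjusted p of 0.743 in edgeR. The difference was 1.13 (unadjusted p = 0.211 in the same edgeR test) without the libraries that stood apart, and it was 1 of 4 members where 6.35% of all genes passed an unadjusted 0.05. No member passed it at 1 hr or 2 hr, where 1.72% and 5.44% of genes did, although Diap2 differed by -1.30 (SE 0.837) at 1 hr, lower in the female-labelled libraries. Between the controls of the labels no member passed an unadjusted 0.05 (2.03% of all genes), and Diap1 differed by -0.02 (SE 0.772). All injured against all controls gave 0.80 (SE 0.459) for Diap1, 0.53 (SE 0.352) for Diap2, -0.37 (SE 0.510) for hid and 0.01 (SE 0.898) for Dcp-1, again with none under 0.05 unadjusted (3.88% of all genes). The median of the 4 members was 0.27 and that of all genes tested 0.00.

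The biological coefficient of variation, the spread between libraries of a group beyond counting error, was 0.680 for Diap1, 0.572 for Diap2, 0.937 for Dcp-1 and 0.956 for hid in the female-labelled libraries. In the male-labelled libraries it was 0.458, 0.406, 0.756 and 0.245. Without the 2 libraries that stood apart the female-labelled values were 0.451, 0.461, 0.737 and 0.368, so that the 0.956 of hid under this label rested on the 2 libraries with 1 hid read each.

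Other genes of the death pathway, 27 in all, were taken as a list of further caspases, Bcl-2 family members, cytochrome c genes, inducers such as p53 and eiger (egr), and nucleases. Of these 26 were in the table, 2 (Damm, a caspase, and Cyt-c-d, a testis cytochrome c) had no read, and 9 were tested in the female-labelled and 6 in the male-labelled libraries. None was called in any of the 11 comparisons. In the 6 comparisons with control the median log2 fold change of those tested ran from -0.44 to -0.01, against -0.04 to 0.05 for all genes tested. The 1 gene of the list under an unadjusted 0.05 in a comparison with control was AIF, a mitochondrial oxidoreductase that can enter the nucleus in dying cells. AIF had 11.8, 22.6 and 15.3 CPM in the female-labelled controls, on 3, 28 and 1 reads. At 2 hr it had 3.44, 0 and 2.23 CPM, on 2, 0 and 3 reads, and the 0 was from the library that stood apart. The log2 fold change between the groups was -3.13 (SE 1.45, unadjusted p = 0.0482, adjusted p = 0.692 in edgeR). These groups did not overlap, and in that comparison 7.13% of all genes tested passed an unadjusted 0.05 and 14.7% did not overlap. The 4 hr library that stood apart had 30.4 CPM of AIF, its highest level in any library. No fit of AIF without the libraries that stood apart is given here. AIF was also the 1 gene of the list under 0.05 in all injured against all controls (log2 fold change -1.54, SE 0.642, unadjusted p = 0.0250, adjusted p = 1.00 in edgeR).

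The libraries that stood apart differed in some genes of this list as well. The genes given here are examples that no test selected. Bruce, a giant ubiquitin ligase with an inhibitor repeat like those of Diap1, had no read in the 2 hr library and 16.5 CPM in the 4 hr library against a median of 114 CPM. Tango7, a translation factor subunit that also acts with Dronc, was at 357 and 339 CPM against a median of 83.8 CPM. Debcl, a Bcl-2 relative, was at 70.3 and 70.1 CPM, near its median of 85.3 CPM.

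The genes whose levels followed Diap2 and hid most closely over the 24 libraries were looked up among 5461 genes, with Pearson's r of log2(CPM + 10). For Diap2 they were Scp2, CG2658 and CG5644, at r of 0.809, 0.791 and 0.765, and at 0.799, 0.804 and 0.748 without the libraries that stood apart. For hid they were CG42750, Nost and CG9821, at r of 0.931, 0.931 and 0.928, and at 0.437, 0.515 and 0.454 in the other 22 libraries. The likeness to hid thus rested largely on the 2 libraries with 1 hid read. All genes of a library share its depth and its cells, and these values are a description.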

How the data were processed

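The authors deposited whole-number read counts per gene, with no scaling, from QuantSeq 3′ FWD libraries. Demultiplexing was with CASAVA 1.8.2, alignment with STAR 2.4 to dm3 and counting with HTSeq (version, annotation and strandedness not given in the sources used here). Their 6 comparison tables, from edgeR 3.22.3, hold fold changes, mean levels, likelihood ratios and p-values, and were not used.

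Changes were tested here with the quasi-likelihood test of edgeR 4.0.16 (R 4.3.3), TMM scaling, filterByExpr, a mean per group and Benjamini-Hochberg adjustment over all genes tested. Each comparison with control was fitted on the 12 libraries with its sex label, the others on all 24. The SE of an edgeR log2 fold change was worked back from its size and the F statistic of the test. It is therefore approximate. DESeq2 1.42.0, limma 3.58.1 (voom), other scalings and filters, each library left out, libraries under 100000 reads or standing apart left out, and a replicate block were alternatives. Limma-voom was always run with sample weights, which count a more variable library for less, so its values differ from edgeR's by more than the tool. Pooled read ratios carry 95% exact intervals for counting error only. The fits were run on simulated counts with known changes, at a smaller spread than the common spread over genes under either label. Those runs therefore do not show which changes could have been found in these libraries. Python 3.11.15 with scipy 1.17.1 made the summaries.

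Each library is the brain of a separate fly. No 2 libraries held identical counts. The members, the gene lists and the tests were chosen with earlier results of these data known. All 9 members were named, and of the list of other genes those with an unadjusted p under 0.05 against control, which was AIF alone. Other genes of that list that are named, such as Bruce, Tango7 and Debcl, did not meet this rule and are examples. Symbols matched Ensembl BDGP6 names. No coordinates are given, because the build differs from the one counted on. Replicate numbers have no stated meaning. The deviations of libraries with the same number from the means of their groups correlated above 0.1 in all 3 pairs for male-labelled 1 hr and control (0.106 to 0.341) and 2 hr and control (0.164 to 0.532), and not in the 4 other comparisons with control. In both of these male-labelled comparisons only 1 of the 3 injured libraries was closest to the control with its own number.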

Additional observations from a re-analysis of the deposited data

How the results depend on the processing

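No member was called in any of 305 refits of the 11 comparisons, with other tools, scalings, filters and sets of libraries. In 17 of these refits some gene was called, at most 95. The replicate block called 0 members in 11 comparisons and gave 1.86 for Diap1 at 4 hr in the female-labelled libraries. Over single libraries left out, that log2 fold change ran from 0.93 to 2.66. Of 44 member fold changes, 22 kept their sign in every refit and 22 did not; in all, 86 of 1214 recomputed values had the other sign. With limma-voom the 2 hr change in male-labelled flies was -0.32 for Diap1 and -0.07 for Diap2, and for Diap1 it was -0.63 without male-labelled 2 hr replicate 2. Dcp-1 there was 1.14 without male-labelled control replicate 1, and the Diap2 label difference at 2 hr was 0.73 with limma-voom. The cause was not tested. Without the filter 7 of the 9 members could be fitted and none was called. For Drice, Dronc, rpr, Dark and grim the level that could be read depended on depth. By library 3 reads were worth 1.98 to 50.7 CPM, and over the pooled controls 1.17 CPM. The part of depth in the missing reads of Dark and grim was not tested.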
